A study of Mus musculus with 26 samples.

Results

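The Nanog-/- embryonic stem cells (ESCs) of this series were used to relate the physical contacts of each gene promoter to the expression of that gene in the same cells. Gene names on the baited fragments of the Nanog-/- contact list were joined to the expression table, which gave 11628 genes with at least 1 contact on their own chromosome and an expression value, of 18832 gene names that were baited in any of the 3 lists of the series. The measurement was promoter capture Hi-C (PCHi-C), in which cross-linked chromatin is cut with HindIII, ligated, and enriched for fragments that carry a promoter (the baits). A contact is a pair of fragments joined by more reads than the CHiCAGO background model gives for their distance, and a pair on 1 chromosome is called a cis pair here. Expression was given as RPKM, the read count of a gene scaled by its length and by the depth of the library.

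The series also holds wild-type (WT) ESCs and epiblast stem cells (EpiSCs), a later, primed pluripotent state. The Nanog-/- cells were the RCNβH-B(t) line, a single mutant line made from E14Tg2a ESCs, which are the WT cells of the series. Both were grown with serum and LIF on gelatin, and the mutant line was expanded with hygromycin. The strain field of the labels reads C57BL/6, whereas the growth protocol describes E14Tg2a as a 129P2/OlaHsd line. The labels name 5 PCHi-C lanes and 3 RNA samples of Nanog-/- ESCs, but the lanes were combined into 1 list and the RNA samples into 1 median per gene, so that no value here has a replicate error and no p-value was calculated. The intervals below are 95% intervals that treat genes or pairs as units. They cover counting error or the spread over genes, not the error between cultures.

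Promoters are brought close to other promoters and to distal elements by looping and by the folding of chromatin into domains, and contacts become sparser as linear distance grows. Active promoters are often found near enhancers and other active promoters, whereas silent developmental genes such as the Hox clusters are held together in compact, Polycomb-marked chromatin in ESCs. NANOG is a homeodomain factor of the pluripotency network, and ESCs that lack it self-renew with LIF but turn towards primitive endoderm more readily.

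The Nanog-/- list held 82228 entries, which were 74585 different cis pairs and 346 pairs between chromosomes. The cis pairs carried 1436746 reads, with 3 to 384 reads and a median of 11 reads per pair, and no score was under 5. The WT ESC and EpiSC lists were larger, with 99706 and 86981 cis pairs, and their median distances of 139 kb and 141 kb were longer than the 74.1 kb of the Nanog-/- list. Whether list size, library depth, or the cells give this difference cannot be told apart. Nanog itself was at 22.3 RPKM in the Nanog-/- cells and at 418 RPKM in WT ESCs. Of the general pluripotency markers, Pou5f1 was at 1129 RPKM and Sox2 at 364 RPKM, and the 6 measured naive markers ranged from 13.6 RPKM (Dppa3) to 244 RPKM (Klf2). The 7 primitive endoderm markers summed to 78.6 RPKM in Nanog-/- ESCs against 5.43 RPKM in WT ESCs, and all 7 were detected, from Foxa2 at 2.54 RPKM to Gata4 at 18.5 RPKM. The part of cells with primitive endoderm expression in the results below was not tested.

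Of the 15646 genes with an expression value, 74.3% had at least 1 cis pair. The share was lowest among silent genes, defined as those under 0.1 RPKM, of which 2140 of 3346 had a pair (64.0%, Wilson interval 62.3% to 65.6%). It was 75.1% from 0.1 to 1 RPKM, 76.9% from 1 to 10 RPKM, 78.1% from 10 to 100 RPKM, and 78.4% (75.8% to 80.7%) at 100 RPKM or more. Olfactory (Olfr) and vomeronasal (Vmn) receptor genes, which are large clustered families for odor and pheromone detection, made up 678 of the silent genes, and 42.8% of these had a pair. Among the remaining silent genes 69.3% (67.6% to 71.1%) had a pair, which was still below the interval of every higher class. The largest step therefore lay between silent genes and the rest. Over all genes, the interval from 0.1 to 1 RPKM (73.3% to 76.8%) also lay just below that from 10 to 100 RPKM (76.9% to 79.2%). The 3 classes above 1 RPKM had overlapping intervals for neighboring classes.

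**Figure D1:**
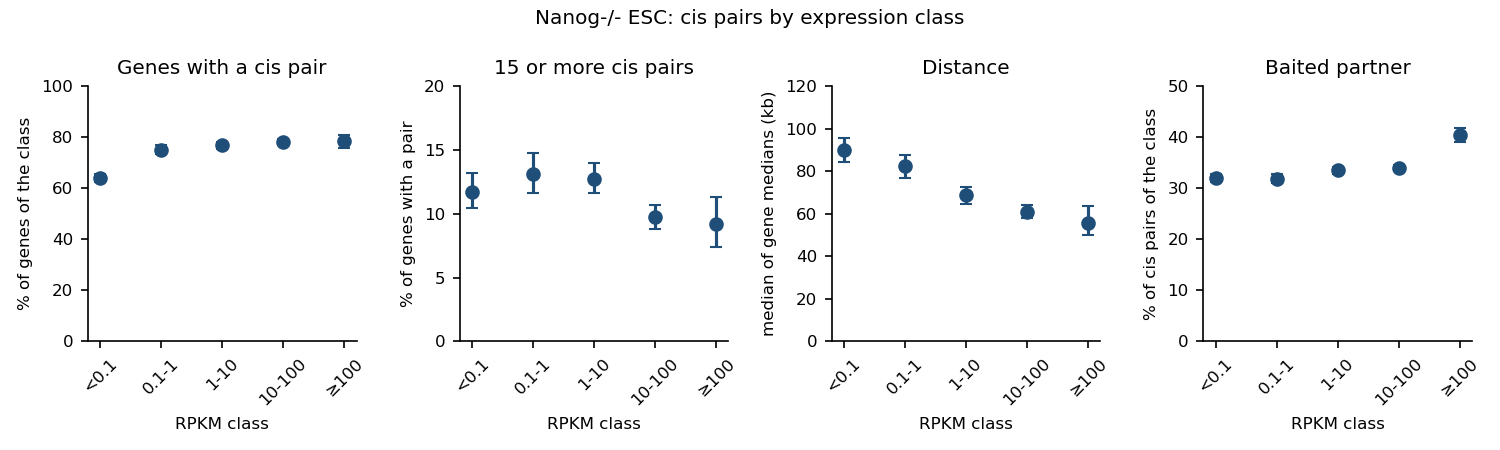
Share of genes with a cis pair, share of genes with at least 15 cis pairs, median contact distance, and share of pairs with a baited partner, by RPKM class in Nanog-/- ESCs. Points are values over genes or pairs and bars are 95% intervals. The share with a pair is lowest under 0.1 RPKM (64.0%), distance goes from 89.8 kb to 55.8 kb, and the baited share is highest at 100 RPKM or more (40.4%). For the baited share each pair is counted once per class.

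Among genes with a pair, the number of pairs was nearly unrelated to the level of expression. The median was 4 pairs in each of the 5 RPKM classes, and Spearman's rho of pairs and RPKM across the 11628 genes was -0.0112. The genes share 1 library pool and neighboring genes share fragments, so the correlation is a description. Its sign depended on the genes without a pair, since rho was 0.0727 when genes baited in any list but without a pair were counted as 0. The upper tail differed more than the median. The 90th percentile was 15 pairs, and 1320 of the 11628 genes (11.4%) had at least this number. Such genes were 13.1% (11.6% to 14.8%) of genes from 0.1 to 1 RPKM and 12.7% (11.6% to 14.0%) of genes from 1 to 10 RPKM, but 9.72% (8.82% to 10.7%) of genes from 10 to 100 RPKM. The mean was 7.20 pairs in the class from 0.1 to 1 RPKM and 5.88 pairs at 100 RPKM or more.

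Read in the other direction, expression was highest at intermediate connectivity. The 4018 genes without a cis pair had a median of 2.07 RPKM (1.60 to 2.48), and 333 of them had no baited fragment in any list. A bait without a listed pair does not appear in the lists, so these 333 genes may still have been captured. Without the 400 Olfr and Vmn genes among them, the median was 3.64 RPKM (3.09 to 4.27). The median was 5.06 RPKM for genes with 1 pair, 5.53 RPKM with 2 to 4 pairs, and 5.92 RPKM (4.97 to 6.66) with 5 to 9 pairs, and the intervals of these 3 groups overlapped. It was 2.51 RPKM (1.93 to 3.38) for the 637 genes with 20 to 39 pairs and 0.751 RPKM (0.356 to 3.69) for the 75 genes with 40 or more. The outermost groups therefore held more silent genes. Among genes without a pair 30.0% were silent, or 22.6% (21.3% to 24.0%) without Olfr and Vmn genes. Among the 75 genes with 40 or more pairs 29.3% (20.2% to 40.4%) were silent, against 17.6% (16.2% to 19.1%) with 5 to 9 pairs. With 20 to 39 pairs the share was 18.5% (15.7% to 21.7%), near that of the group with 5 to 9 pairs. Over all 11628 genes with a pair, 2140 were silent. Other clustered families were not removed. The silent genes with 40 or more pairs included Hoxc11 and the keratins Krt71, Krt73, Krt75, Krt78, Krt82, and Krt86. The high end thus rests in part on a few clusters of neighboring genes.

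**Figure D2:**
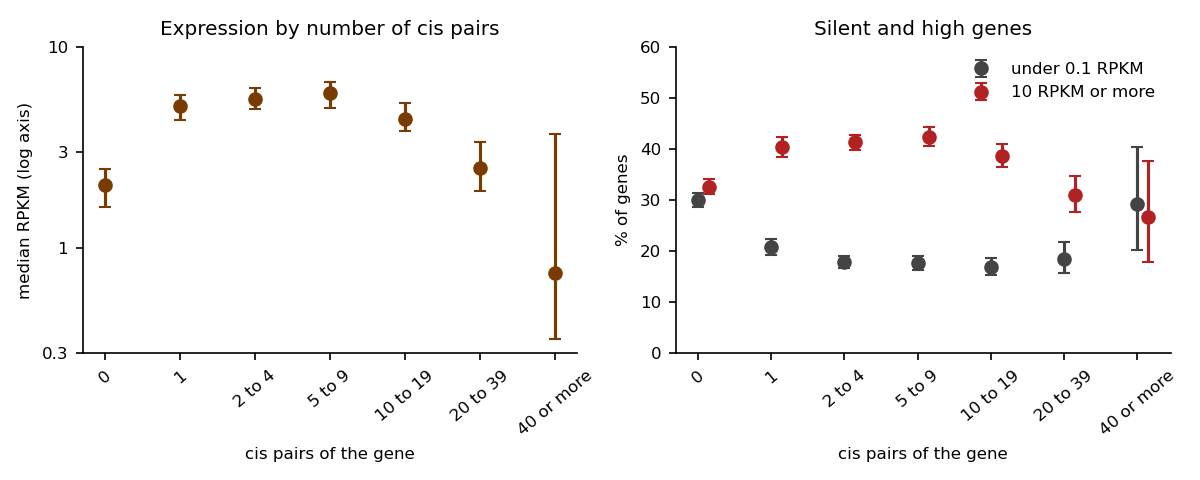
Left, median RPKM (log axis) of genes grouped by their number of cis pairs, with exact order-statistic intervals. Right, share of these genes under 0.1 RPKM and at 10 RPKM or more, with Wilson intervals. The median is highest at 5 to 9 pairs (5.92 RPKM) and lowest at 40 or more (0.751 RPKM).

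The distance to the partner was shorter for expressed genes. The median over genes of the gene's median distance was 89.8 kb (84.1 to 95.5) for silent genes and 82.7 kb, 68.7 kb, and 61.0 kb in the next 3 classes. It was 55.8 kb (50.2 to 63.8) at 100 RPKM or more, and rho of distance and RPKM was -0.112. The relation was weaker within parts of the range, with a rho of -0.0616 among genes of 1 RPKM or more and -0.0202 among those under 1 RPKM. It was also smaller with at least 10 reads per pair, at a rho of -0.0704. The medians were then 25.3 kb for silent genes and 22.5 kb for genes at 10 RPKM or more, compared with 89.8 kb and 60.1 kb over all pairs. Pairs from 100 to 800 kb had a median of 7 reads, so this cut removes most of them and narrows the range of distance. It cannot show whether the relation is weaker in better-covered pairs. For pairs with at most 20 reads rho was -0.145. Of the pairs of silent genes, 19.5% spanned under 20 kb and 48.5% spanned 100 to 800 kb. Of the pairs of genes at 100 RPKM or more, 24.5% and 36.1% lay in these bands. Pairs above 800 kb were 0.619% (0.497% to 0.770%) of the pairs of silent genes and 0.148% (0.0718% to 0.305%) of the pairs of the highest class.

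The number of reads per pair went with distance and hardly with expression. Median reads and median distance of a gene had a rho of -0.823, and reads and RPKM had a rho of 0.0344. The median of the gene medians was 10.5 reads for silent genes and 11 to 11.25 reads in the other classes. At short range silent genes had more reads, since pairs under 20 kb had a median of 41 reads for silent genes and 34 reads for genes at 100 RPKM or more. From 100 to 800 kb the median was 7 reads in every class.

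Partner fragments that carry a bait themselves were about as frequent for silent as for most expressed genes. A pair was counted once in each class that held either of its genes. A pair between baited fragments can therefore count in more than a single class, so that these shares lie above the 25.1% of all pairs of the 11628 genes. A pair with both genes in the same class counted once, which lowers the share of classes where such pairs were frequent, as among silent genes. Of the pairs of silent genes, 32.0% (31.2% to 32.8%) had a baited partner. The share was 31.9%, 33.5%, and 33.9% in the next 3 classes and 40.4% (39.0% to 41.8%) at 100 RPKM or more. In this count the excess of the highest class lay at every distance up to 800 kb, with 46.7% against 37.1% for silent genes from 20 to 100 kb. The excess over silent genes was hardly seen per gene. The mean baited share per gene was 44.7% for silent genes and 45.5% at 100 RPKM or more, with means of 2.45 and 2.43 baited pairs. The classes between were at 39.2%, 42.0%, and 43.5%. Silent genes were more mixed than their pooled share shows. Among the 1169 genes listed at 0 RPKM the mean share of baited partners per gene was 50.1%, and it was 43.3% in the 899 of them outside the Olfr and Vmn families. Across genes, rho of the baited share and RPKM was 0.0217, and it was 0.0669 without Olfr, Vmn, histone, protocadherin, Hox, keratin, and defensin genes.

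The number of pairs moved more with the surroundings and base composition of the baited fragment than with expression. Pairs and the number of baits within 500 kb had a rho of 0.406, which was 0.555 for pairs with a baited partner and 0.176 for pairs with an unbaited partner. Pairs and the GC content of the baited fragment had a rho of 0.314. CpG dinucleotides per kb, which mark the CpG islands of broadly active promoters, went instead with expression (rho 0.455) and hardly with pairs (rho 0.0699). The median CpG density of the baited fragment was 10.4 per kb for silent genes and 23.4 per kb at 100 RPKM or more. GC content and capture or sequencing yield can move together, and their part in the number of pairs was not tested.

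Within the strata of higher GC content, silent genes had a higher mean number of pairs than genes at 100 RPKM or more. In the highest tertile, from 51.0% to 74.8% GC, the 337 silent genes had a mean of 11.4 pairs (SE over genes 0.648) and the 276 genes at 100 RPKM or more a mean of 7.33 pairs (SE 0.391). The shares with at least 15 pairs were 27.9% (23.4% to 32.9%) and 14.1% (10.5% to 18.7%). In the middle tertile the means were 7.97 pairs (SE 0.357) and 6.21 pairs (SE 0.360). In the lowest tertile, which held 1199 of the 2140 silent genes, they were 4.39 pairs (SE 0.150) and 3.96 pairs (SE 0.240). Most silent genes thus lay in the stratum with the fewest pairs, whereas the silent genes of the highest tertile had the highest mean of the 15 classes. By the median they were level with the genes of 1 to 10 RPKM in the same tertile, at 7 pairs each (6 to 9 and 6 to 7). Distance kept its order in each stratum, at 91.1 kb, 86.4 kb, and 93.6 kb for silent genes and 49.2 kb, 55.3 kb, and 60.5 kb for genes at 100 RPKM or more, from the lowest to the highest tertile. These strata were formed after the values had been seen.

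**Figure D3:**
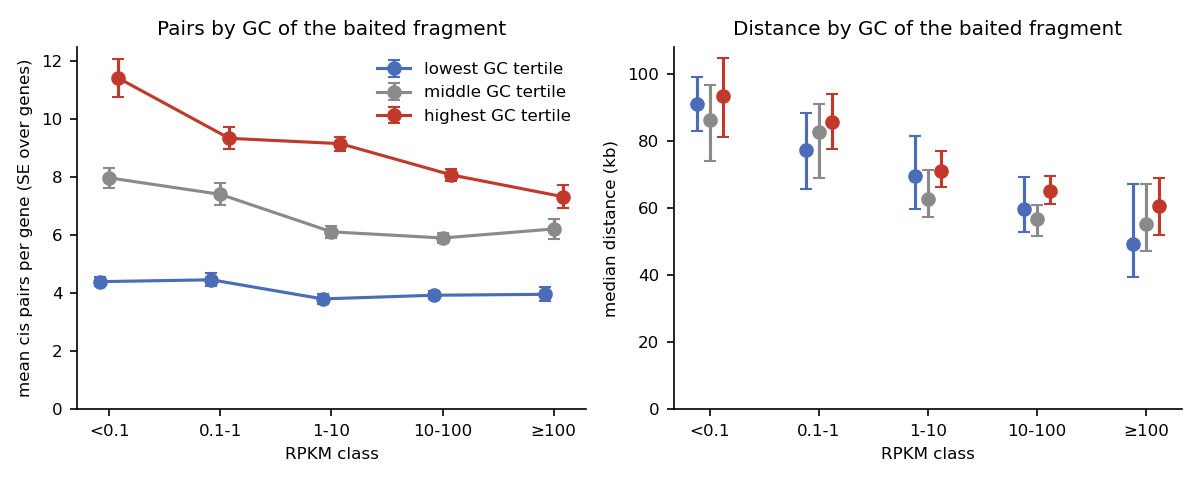
Mean cis pairs per gene with standard errors over genes (left) and median distance with 95% intervals (right), by RPKM class and tertile of GC content of the baited fragment. In the highest tertile silent genes have a mean of 11.4 pairs and genes at 100 RPKM or more a mean of 7.33, and in each tertile distance is longest for silent genes.

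Of the 10 genes with the most pairs, 9 were under 1 RPKM. Of all 11628 genes with a pair, 2140 were silent, 1785 were from 0.1 to 1 RPKM, and 4688 were at 10 RPKM or more. The wider group was mixed, since among the 75 genes with 40 or more pairs 29.3% were silent and 26.7% were at 10 RPKM or more. Cyp2d26, a cytochrome P450 of the liver, had 104 cis pairs at 0.105 RPKM, of which 88 led to unbaited fragments. It had 46 pairs in WT ESCs and 27 in EpiSCs, and 40 of the 104 pairs were also listed in WT ESCs. Dmkn, a secreted epidermal protein, had 84 pairs at 0.975 RPKM, and 74 of them were also listed in WT ESCs. The lncRNA gene A730018C14Rik had 73 pairs and was listed at 0 RPKM. Hoxc5 and Kcnn3, a calcium-activated potassium channel, followed with 71 pairs each at 0.212 and 0.390 RPKM. E130303B06Rik was the only gene above 1 RPKM among these 10, with 67 pairs at 20.5 RPKM. The 5 silent genes with the most pairs were A730018C14Rik, the keratins Krt73, Krt75, and Krt78 with 70, 66, and 65 pairs, and Tekt4, a ciliary filament gene, with 64 pairs.

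The largest number of pairs was 37 among the 818 genes at 100 RPKM or more. It was 67 among the 3870 genes from 10 to 100 RPKM and 73 among the 2140 silent genes. A largest value depends on the size of the class, and the median was 4 pairs in each class. The top 5 at 100 RPKM or more were Eef1g, a subunit of translation elongation factor 1, with 37 pairs at 1420 RPKM, Eif5a with 36 pairs at 1361 RPKM, Chmp2a, a subunit of the ESCRT-III membrane scission complex, with 32 pairs at 191 RPKM, Tcof1 with 31 pairs at 121 RPKM, and Clic1 with 29 pairs at 111 RPKM. At the other end were the 5 most expressed genes with 1 pair. Pkm2 (pyruvate kinase) was at 4186 RPKM, Ptma at 4044 RPKM, Npm1 at 2507 RPKM, the ribosomal protein gene Rps7 at 1724 RPKM, and the chaperone gene Hspa8 at 1676 RPKM. Their single pairs had 4 to 9 reads and scores from 5.02 to 8.50, and only that of Hspa8 was also listed in WT ESCs. Genes of this kind have processed copies elsewhere in the genome, so that their RPKM values are uncertain where reads were shared.

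The 250 bases upstream of the RefSeq start of 4 of these genes are given for comparison of base composition in promoters that differ in pairs and expression, 5′ to 3′ on the coding strand of GRCm38.p6, with CpG dinucleotides in capitals. Cyp2d26 (chr15:82794246-82794495, minus strand, many pairs, weak expression) and Krt73 (chr15:101802361-101802610, minus strand, many pairs, silent) hold 0 and 3 CpGs. Chmp2a (chr7:13034778-13035027, minus strand, many pairs, high expression) and Rps7 (chr12:28635954-28636203, minus strand, 1 pair, high expression) hold 10 and 18 CpGs. The median of the 32817 windows of this length in the table is 6.
Cyp2d26: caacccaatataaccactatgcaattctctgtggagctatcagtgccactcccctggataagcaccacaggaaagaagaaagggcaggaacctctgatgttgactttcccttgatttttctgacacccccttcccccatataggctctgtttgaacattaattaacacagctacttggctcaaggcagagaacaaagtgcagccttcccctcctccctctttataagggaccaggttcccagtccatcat
Krt73: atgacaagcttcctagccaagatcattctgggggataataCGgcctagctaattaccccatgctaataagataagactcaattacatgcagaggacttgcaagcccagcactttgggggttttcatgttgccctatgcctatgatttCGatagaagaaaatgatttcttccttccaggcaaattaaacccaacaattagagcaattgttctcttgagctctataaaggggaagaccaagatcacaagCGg
Chmp2a: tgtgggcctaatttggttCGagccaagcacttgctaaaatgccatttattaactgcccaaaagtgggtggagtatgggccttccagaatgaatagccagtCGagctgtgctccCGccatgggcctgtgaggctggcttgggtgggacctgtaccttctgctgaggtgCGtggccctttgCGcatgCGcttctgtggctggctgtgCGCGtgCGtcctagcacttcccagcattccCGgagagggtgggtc
Rps7: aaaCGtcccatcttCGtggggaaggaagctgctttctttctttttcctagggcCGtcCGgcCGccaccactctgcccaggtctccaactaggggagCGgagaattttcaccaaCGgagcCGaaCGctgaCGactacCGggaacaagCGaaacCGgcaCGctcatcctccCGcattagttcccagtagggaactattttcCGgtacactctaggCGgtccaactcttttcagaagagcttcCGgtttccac
The TATA box letters TATAAA, searched on both strands, occur once in each of the Cyp2d26 and Krt73 windows and in neither of the other windows. They occur in 12.4% of all 32817 windows. The GC box letters GGGCGG, found in 32.7% of all windows, occur in none of the 4. Only 7887 of the 11628 genes matched the promoter table by symbol, so the windows were not summarized over genes. All 250 bases lie inside the baited fragment for Cyp2d26, Chmp2a, and Rps7, and 240 of them for Krt73.

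Families of genes were ranked by the median number of cis pairs of their members with a pair, given with its 95% order-statistic interval over genes. Keratins, the filament proteins of epithelia and hair, ranked first of 32 families with at least 10 members in the list. Of 44 keratin genes, 42 had a pair, with a median of 20 pairs (15 to 34), and 28 had at least 15 pairs, against 11.4% of all genes. Of the 44 genes 25 were silent. The 20 keratin genes on chromosome 15 had a median of 36 pairs and the 22 on chromosome 11 a median of 14.5. The most connected were Krt73 and Krt75. The 3 keratins at 10 RPKM or more, the simple-epithelial Krt8 (81.1 RPKM), Krt18 (78.5 RPKM), and Krt19 (18.6 RPKM), had 12, 13, and 23 pairs. The 25 silent keratins had a median of 30 pairs and ranged from 3 (Krt25) to 70 (Krt73). The baited fragments of keratins had a median of 49.5 baits within 500 kb, compared with 16 over all genes, and 16.3% of their pairs led to another keratin. With a score of at least 7 their median was 8.5 pairs, below the 9 pairs of Hox genes.

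Hox genes, the homeobox regulators of body axis identity, ranked second. All 31 had a pair, with a median of 15 pairs (11 to 23), and 19 had at least 15. The clusters differed. The 7 Hoxc genes had 26 to 71 pairs (median 35), with Hoxc5 at 71 and Hoxc11 and Hoxc8 at 58 each. The 10 Hoxb genes had 11 to 31 pairs (median 16.5), the 8 Hoxa genes 7 to 20 pairs (median 12), and the 6 Hoxd genes 4 to 23 pairs (median 6). Hoxc11 had its 58 pairs at 0.0488 RPKM and Hoxc8 at 0.724 RPKM. The ranges of Hoxc and of Hoxa did not overlap, although both groups were low in expression, with medians of 0.408 and 0.426 RPKM.

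Wnt ligands, secreted signals that in ESCs act on self-renewal and later pattern the embryo, followed with a median of 13 pairs (4 to 21) in 18 of 19 genes. Unlike keratins and Hox genes they lie on 10 chromosomes, and 1.59% of their pairs led to another Wnt gene. Wnt1, listed at 0 RPKM, had 33 pairs, and Wnt9b at 0.0310 RPKM had 29. Wnt9a, the most expressed at 3.57 RPKM, had 19, and Wnt16 and Wnt8b had 1 each. No Wnt gene reached 10 RPKM. Proteasome subunits and clustered protocadherins came next, each with a median of 7 pairs (2 to 9 and 4 to 11). The interval of the proteasome genes spanned the median of all genes, and with a score of at least 7 both families had a median of 3 pairs and were no longer among the first 6. Of the 28 proteasome genes with a value 25 were at 10 RPKM or more, and the most connected members were the immunoproteasome genes Psmb10 with 45 pairs at 43.0 RPKM and Psmb8 with 21 pairs at 2.50 RPKM. Protocadherins, neuronal adhesion molecules, were silent in 13 of 21 genes, and Pcdhb19 and Pcdhb1 had 16 and 15 pairs. Potassium channels had a median of 6.5 pairs (4 to 9), led by Kcnn3 with 71 and Kcnj9 with 36 pairs.

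**Figure D4:**
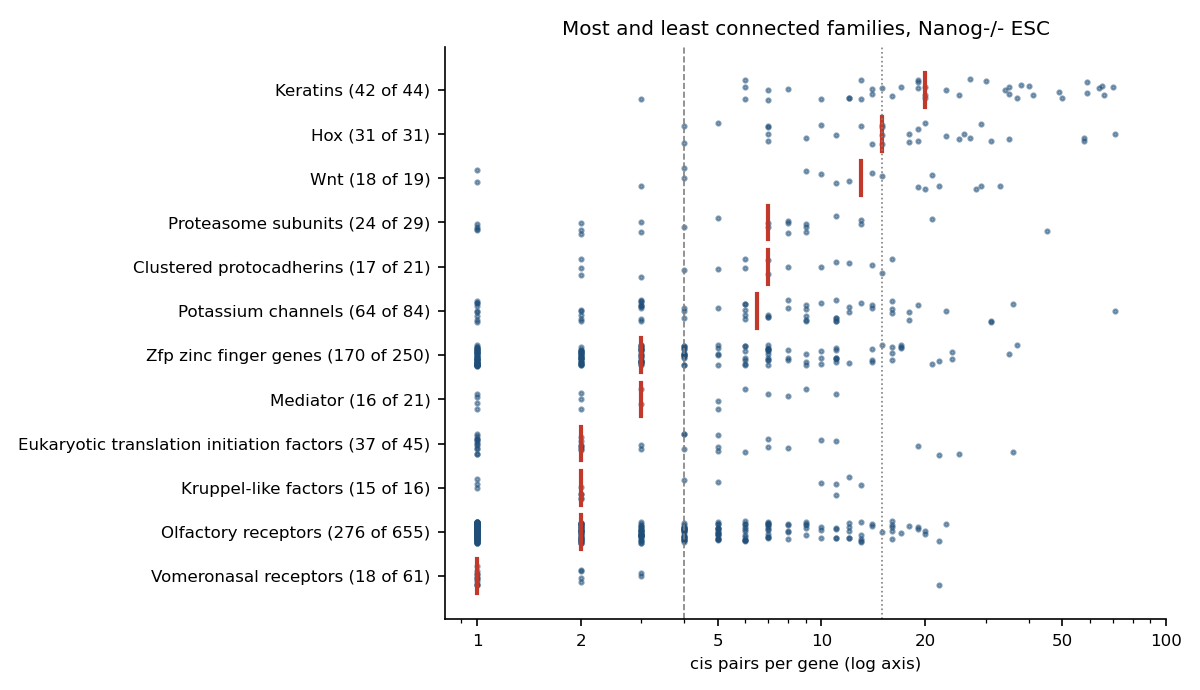
Cis pairs per gene (log axis) for the 6 most and 6 least connected families in Nanog-/- ESCs. Each point is a gene with a pair, red bars are family medians, and the numbers in brackets are genes with a pair of all family genes. The dashed line is the median of all genes (4) and the dotted line the 90th percentile (15). Keratins have a median of 20 pairs and vomeronasal receptors a median of 1.

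The least connected families were of 2 kinds. Vomeronasal receptors had a pair in 18 of 61 genes, with a median of 1 pair, and 56 of the 57 with a value were silent. Vmn1r1, with 22 pairs, stood apart from Vmn2r79, the next, with 3. Olfactory receptors had a pair in 276 of 655 genes, with a median of 2 pairs (2 to 3), and 26.0% of their pairs led to another olfactory receptor. The highest were Olfr223 with 23 and Olfr1347 with 22 pairs. The baited fragments of these families were low in GC, at medians of 40.2% for olfactory and 37.8% for vomeronasal receptors. The other 4 families were mostly expressed, although fewer Zfp genes reached high levels. Kruppel-like factors, which include pluripotency regulators, had a median of 2 pairs (2 to 11) in 15 of 16 genes, with Klf14 at 13 and Klf3 at 12. Translation initiation factors had a median of 2 pairs (2 to 5), although Eif5a had 36 and Eif2b5 had 25. Mediator subunits, which bridge enhancers and RNA polymerase II, had a median of 3 pairs (1 to 7), led by Med11 with 11 and Med31 with 9, and Zfp zinc finger genes a median of 3 pairs (2 to 3), led by Zfp541 with 37 and Zfp526 with 35. These were the families with the lowest means among 6 that shared a median of 3 pairs, the others being cytosolic and mitochondrial ribosomal proteins, replication-dependent histones, and claudins. The intervals of Kruppel-like factors, initiation factors, and Mediator subunits spanned the median of all genes, which was 4 pairs. With a score of at least 7, initiation factors and Mediator subunits had a median of 3 pairs, level with proteasome subunits. Of the initiation factors 10.8% had at least 15 pairs, against 11.4% of all genes. Among genes with a value, 11 of 16 Kruppel-like factors, 41 of 44 initiation factors, 20 of 21 Mediator subunits, and 94 of 247 Zfp genes were at 10 RPKM or more. Silent families were thus found at both ends of the ranking.

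Groups formed only from the letters of the gene symbol gave similar extremes. Of 132 such groups, Krt (20 pairs), Hoxb (15), Wnt (13), a group that held mostly S100 calcium-binding genes (11), the lipocalins Lcn (10.5), and the inward rectifier channels Kcnj (9) had the highest medians. Pex, the peroxisome biogenesis genes, tied with Kcnj at 9 pairs and had a lower mean. The lowest medians were those of Vmn (1) and the cadherins Cdh (1). Another 13 groups had a median of 2 pairs, and those with the lowest means among them were the taste receptors Tas, the tyrosine phosphatases Ptpn, the centrosomal genes Cep, and the mitochondrial ribosomal genes Mrps. The S100 group was led by S100a14 with 48 pairs at 0.0303 RPKM and the Lcn group by Lcn12 with 49 pairs, listed at 0 RPKM.

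Genes in contact with each other resembled each other in expression. Both fragments were baited and had an expression value in 12120 pairs, and rho between the ends was 0.336. Of the partners of silent ends 50.5% were silent, compared with 6.40% of the partners of ends at 100 RPKM or more. The order was the same in pairs of at least 200 kb, with 51.6% and 7.22% and a rho of 0.375 over 2563 pairs, but this rested in part on clustered families. The relation was weaker outside clustered families. Without pairs that touched an Olfr, Vmn, histone, protocadherin, Hox, keratin, or defensin gene, rho was 0.213 and 33.6% of the partners of silent ends were silent, against 6.10% for the highest class. In the 2187 of these pairs of at least 200 kb rho was 0.200, with 27.1% and 6.92% silent partners. Over all distances, partners at 10 RPKM or more made up 25.2% and 52.0% of the partners of these ends. Genes that lie near each other without a listed contact were not compared, so that resemblance by linear position was not separated from resemblance by contact.

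**Figure D5:**
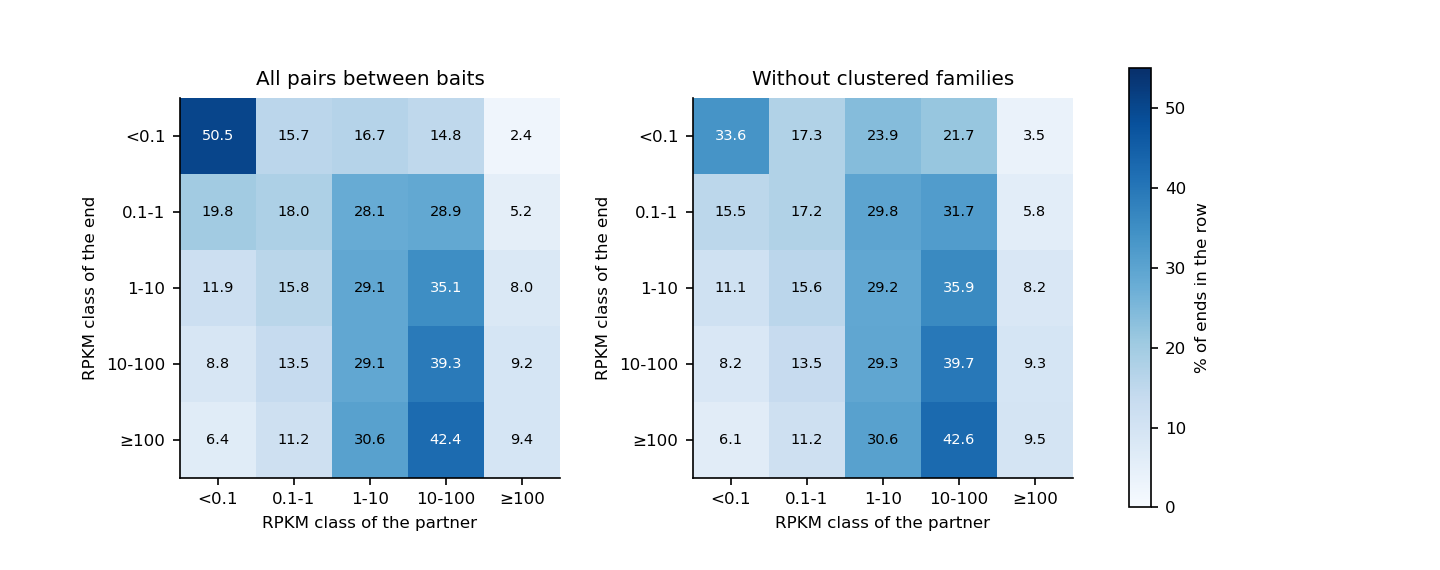
RPKM class of the partner (columns) for each RPKM class of an end (rows) in cis pairs between baited fragments, as percent of the ends in the row, with each pair counted from both ends. Left, all 12120 pairs. Right, without clustered families. Silent ends have silent partners in 50.5% and 33.6% of cases.

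Pairs above 800 kb were few, at 276, or 0.370% of cis pairs. They had a median of 5 reads, and 28.6% (23.6% to 34.2%) joined baited fragments, against 22.0% of shorter pairs. By median distance among genes with at least 5 pairs, 1810030J14Rik was first, at 1052 kb with 8 pairs and 0.0412 RPKM, and all 8 pairs were listed in WT ESCs and in EpiSCs too. Igfbp3, an IGF-binding protein at 20.2 RPKM, had 13 pairs with a median of 1029 kb, all unbaited. Bhlhe22 and Dlx5, transcription factors of neural and craniofacial development, had medians of 1001 kb and 877 kb at 0.195 and 0.0261 RPKM. These genes lie in bait-poor regions, with 3 to 6 baits within 500 kb for all but 1810030J14Rik, which had 16. At the other end, the genes with the highest median reads among those with at least 5 pairs (Cpn2, C4bp, 4930572J05Rik, Ctsw, and Fam83a) had medians of 60.5 to 97.5 reads and median distances of 6.76 to 12.5 kb.

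Fragments on the far side of a contact could be shared. The list held 37701 unbaited partner fragments, of which 69.7% were contacted by 1 bait and 70 by at least 10. The most contacted fragment, chr17:35111646-35112789 in GRCm38, was listed with 19 baits from the major histocompatibility complex class III region, among them Clic1, Msh5, Lsm2, and Vars, with 550 reads. A fragment within the type II keratin cluster, chr15:101925985-101927945, was listed with 16 baits that included Krt1, Krt5, Krt73, and Krt75, and the genes of its baits had a median of 0.0152 RPKM.

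The pluripotency and lineage regulators did not share a level of connectivity. Nanog had 11 cis pairs, against 20 in WT ESCs and 12 in EpiSCs. Its pairs reached from 10.2 kb to 340 kb with 4 to 21 reads, 10 of them led to unbaited fragments and 1 to the Foxj2 bait at 113 kb, and 8 were also listed in WT ESCs. Esrrb (147 RPKM) had 12 pairs and Gapdh (1033 RPKM) 23. Pou5f1, the gene of OCT4, had 3 pairs at 1129 RPKM, all to baited fragments. Sox2 (364 RPKM), Sall4 (104 RPKM), Dppa3 (13.6 RPKM), Pax6 (1.74 RPKM), and Actb (754 RPKM) had no listed pair. Klf4 had 2 pairs at 31.7 RPKM. Tbx3 (24.1 RPKM) had 6 pairs with a median of 766 kb, including Lhx5 at 762 kb with 17 reads and a score of 25.97. Zfp42 and Eef1a1 were not matched by symbol and were not analysed here.

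The 7 primitive endoderm markers, each higher in RPKM than in WT ESCs, ranged from no pair for Sox7 (9.18 RPKM) to 18 pairs for the receptor gene Pdgfra (9.20 RPKM). Gata6 was at 16.4 RPKM with 1 pair, against 0.538 RPKM and 4 pairs in WT ESCs. Gata4 was at 18.5 RPKM with 6 pairs against 1.29 RPKM and 5 pairs. Sox17 was at 5.93 RPKM with 2 pairs against 0.237 RPKM and 8 pairs, Foxa2 at 2.54 RPKM with 1 pair, to Pax1 over 687 kb, against 0.831 RPKM and 2 pairs, and Dab2, an endocytic adaptor, at 16.8 RPKM with 4 pairs against 1.47 RPKM and 3 pairs. Gata6, Sox17, and Foxa2 thus had fewer pairs than in WT ESCs, whereas Gata4 and Dab2 had 1 more each. The pairs of Sox7 and Pdgfra were not compared with WT ESCs. The partners of Dab2 included another baited fragment named for Dab2 itself. Over all 11628 genes the mean was 6.51 pairs in the Nanog-/- list and 8.22 pairs in the WT list. These genes were kept for a pair in the Nanog-/- list, and those without a WT pair counted as 0 there. Genes with a pair only in the WT list were left out, so these means are not on equal terms. Of the primed and mesodermal genes, Fgf5 had 1 pair at 1.11 RPKM and T 7 pairs at 1.14 RPKM.

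Distance was also shorter for expressed genes in the other cell states, each with its own list and expression values, with a rho of -0.156 in WT ESCs and -0.104 in EpiSCs. The other relations differed in value. Spearman's rho of pairs and RPKM was 0.0102 in WT ESCs and 0.0707 in EpiSCs. In WT ESCs the share of genes with a pair was 87.3% for silent genes and 88.3% at 100 RPKM or more, so that the gap of the Nanog-/- list was not seen there. It was 76.9% and 88.0% in EpiSCs. With 1 list per state no difference between states was tested. The Nanog-/- list shared 41748 cis pairs with the WT list, which were 56.0% of its own and 41.9% of the WT pairs. Sharing was similar across RPKM classes, from 56.5% for silent genes to 58.4% at 100 RPKM or more, and it moved with the score instead. Pairs with a score of 5 to 7 were listed in WT ESCs in 39.2% of cases, and pairs with a score of 10 or more in 93.2%.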

How the data were processed

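PCHi-C and RNA-seq were measured in WT ESCs, Nanog-/- ESCs, and EpiSCs. By the study's methods, the authors mapped and filtered PCHi-C reads with HiCUP on GRCm38 (Bowtie 1.1.0 in the submitters' processing notes), scored fragment pairs with CHiCAGO, and combined the replicates of a cell type. The deposited lists give a read count and a CHiCAGO score for each pair, and pairs under a score of 5 are not in the lists. A pair without an entry can therefore lie just under this score. The deposited expression table gives the authors' median RPKM for each gene and cell type. The processing notes also name Trim Galore, TopHat, and DESeq2, without a role, and the RNA-seq counting is not given in the sources used here. The same table holds log2 fold changes and p-values of comparisons between cell types made by the authors, and neither was used.

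Pairs listed from both ends were counted once. Transcript suffixes were removed from bait names, names were split, and genes were matched to the table by symbol. Distance was taken between fragment midpoints. Genes were described by the number of cis pairs, the medians of distance and reads, and the share of partners that were baited. Medians have exact order-statistic intervals, shares have Wilson intervals, and correlations are Spearman's rho, all over genes or pairs at 95%. GC and CpG content were read from GRCm38 for each baited fragment. Python 3.11.15 with pandas 2.3.3, scipy 1.17.1, and pysam 0.24.0 was used. The counting was tested on simulated data, in which the number of pairs was recovered for 11628 of 11628 genes. In these data each gene had a single baited fragment with a single name. Fragments with several names and the match of symbols to the expression table were therefore not covered.

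The genes named were the 10 with the most pairs, the 5 with the most among silent genes and among genes at 100 RPKM or more, the 5 with the longest median distance and the 5 with the most median reads among genes with at least 5 pairs, the 5 most expressed with 1 pair, a list of pluripotency, lineage, and housekeeping genes, and the 6 most and 6 least connected families with their 2 leading members. Families needed at least 10 members with a pair and were ranked by the median number of pairs, with ties ordered by the mean. Further members of families, partners, and markers were chosen after their values were seen. The genes and lists were chosen with earlier results of these data known. Alternatives were a score of at least 7, at least 10 reads, fragments with 1 gene name, genes with 1 fragment, genes without a pair counted as 0, genes of 1 RPKM or more, no clustered families, pairs of at most 800 kb, and every entry counted. Results for a few genes that these rules name are not reported here.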

Additional observations from a re-analysis of the deposited data

How the results depend on the processing

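Of 83 alternative values for 12 results, 53 moved by less than the interval of the reported value, 29 moved by more, and 1 reversed. Those counts leave out the medians of single families. With a score of at least 7, the median was 2 pairs for silent genes and 2 pairs for genes at 10 RPKM or more, their median distances were 66.1 kb and 42.0 kb, and their baited shares were 37.2% and 38.3%, compared with 4 and 4 pairs, 89.8 kb and 60.1 kb, and 32.0% and 33.3%. With at least 10 reads, genes at 10 RPKM or more had a median of 3 pairs, distances were 25.3 kb and 22.5 kb, and baited shares were 27.9% and 29.2%. Under this setting rho of distance and expression was -0.0704 and rho of reads and expression reversed to -0.00426, and the cause was not tested. With every entry counted, the baited shares were 29.7% and 31.9%. Among genes of 1 RPKM or more, rho with expression was -0.0434 for pairs, -0.0616 for distance, 0.0101 for reads, and 0.0441 for the baited share. Without clustered families, the baited share of silent genes was 30.2% and its rho 0.0669. With genes baited in any list but without a pair counted as 0, rho of pairs was 0.0727 and the medians were 2 pairs for silent genes and 3 pairs for genes at 10 RPKM or more. Of the 12 families named, 7 were named again with a score of at least 7, and 7 with members without a pair counted as 0. Spearman's rho of partner expression was 0.375 for pairs of at least 200 kb. After seeing the data, 3 alternatives were added. Spearman's rho of pairs was 0.0782 with all table genes without a pair at 0, rho of partner expression was 0.213 without clustered families, and rho of distance was -0.145 for pairs with at most 20 reads. No paired analysis was possible because the lanes and RNA samples were pooled before deposit, and for the same reason no replicate could be left out. With a median of 11 reads per pair, a missing pair is not evidence of a missing contact.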

Other observations

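Connectivity in Nanog-/- ESCs differed between chromosomes. Genes with at least 15 cis pairs made up 18.1% of the 579 genes on chromosome 17, 17.5% of the 514 genes on chromosome 15, and 17.3% of the 1100 genes on chromosome 7. They made up 5.68% of the 405 genes on chromosome 13 and 2.37% of the 169 genes on the X chromosome. Chromosome 15 holds the Hoxc cluster and the type II keratins, and chromosome 17 the major histocompatibility complex. The X chromosome had the lowest median of pairs, at 2, and the lowest median of reads per pair, at 8. Median RPKM was 6.94 on the X chromosome and 7.36 on chromosome 17, so that chromosomes with similar expression lay at opposite ends in pairs. The number of X chromosomes in the cells was not tested.

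Other developmental families lay between the extremes. Homeobox genes outside the Hox clusters had a median of 5 pairs in 70 of 82 genes, with 19 pairs above 800 kb, and were led by Pax2 with 37 pairs at 0.0412 RPKM. Forkhead genes had a median of 4.5 pairs, led by Foxe3 with 31 pairs, listed at 0 RPKM. T-box genes had a median of 6 pairs, led by Tbx1 with 37 pairs at 0.375 RPKM. Sox genes had a pair in 10 of 18 members, with a median of 4 pairs at a median distance of 195 kb. Cytosolic ribosomal protein genes, at a median of 650 RPKM, had a median of 3 pairs in 45 of 57 genes, and 0 of their pairs led to another member. Integrins and laminins had a median of 4 pairs, and the most connected gene grouped with them by symbol, Itgb1bp1, had 62 pairs at 16.8 RPKM.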
